A study of Mus musculus with 6 samples.

Results

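The RGS family (regulators of G protein signalling) was followed through 10 of its genes in mouse lung fibroblasts, and all 10 were found in the deposited table of 43430 gene IDs. The genes were Rgs2, Rgs3, Rgs4, Rgs5, Rgs9, Rgs10, Rgs12, Rgs16, Rgs17 and Rgs19, taken by symbol and Ensembl ID. The set was chosen by the measured counts of these same 6 libraries, with their earlier hypercapnia results in view. The values of the 10 genes in the comparison of hypercapnia with room air are therefore a description, and an adjusted p given for one of them says where its row stands in the fit over all genes, not that it was found independently.

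The libraries were made from lung fibroblasts sorted by flow cytometry for the PDGF receptor alpha, from male C57BL/6J mice of 9 to 11 weeks. Hypercapnia (10% CO2 for 10 days) and room air are the 2 groups, with 9 mice in each, pooled by 3 into 3 libraries. Libraries M4, M5 and M6 are hypercapnia, and M1, M2 and M3 are room air. Both groups share the strain, sex, age and sort, and the labels name no allele or transgene.

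RGS proteins shorten signalling by receptors coupled to G proteins. An activated receptor loads the G alpha subunit with GTP, and the RGS domain speeds up the hydrolysis of that GTP, which returns the subunit to its resting state. The R4 subfamily (Rgs2, Rgs3, Rgs4, Rgs5 and Rgs16) holds mostly small proteins that act on Gi or Gq, the R7 subfamily (Rgs9) works as a complex with the unusual beta subunit Gnb5, the R12 subfamily (Rgs10 and Rgs12) acts on Gi and Go, and the RZ subfamily (Rgs17 and Rgs19) acts on Gz and Gi. In fibroblasts and smooth muscle such receptors carry the signals of catecholamines, endothelin, thrombin and lysophospholipids.

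Total counts were 9009124 to 10198336 in the hypercapnia libraries and 8999780 to 9759770 in the room air libraries, so that 3 counts, the limit that a count of 0 allows, correspond to 0.281 to 0.354 CPM. CPM are counts scaled to the library total, here with TMM factors. The sorted receptor Pdgfra lay at 2530 to 3370 CPM in hypercapnia and 3320 to 3710 CPM in room air. All 21 endothelial markers of a fixed list were detected, and their summed level was 3270 to 5520 CPM in hypercapnia and 869 to 3390 CPM in room air, lowest in M3. Summed pericyte and smooth muscle markers, 12 of 16 past the filter, ran from 829 to 839 CPM in hypercapnia and from 761 to 769 CPM in room air. Few abundant genes weigh most in this sum, and the 12 were divided into 6 positive and 6 negative log2 fold changes. Abcc9 had a mean of 206 CPM in hypercapnia and 142 in room air, Pdgfrb of 146 in hypercapnia and 158 in room air. The leukocyte marker Ptprc had 0 counts in hypercapnia and 2 in room air, and the leukocyte markers Cd3e, Cd3g, Nkg7, Itgax, Adgre1 and S100a8 had none anywhere. Of the 16 leukocyte markers, 2 passed the filter. Lyz2, a lysozyme of macrophages and alveolar epithelium, stood at 21.3, 58.7 and 52.7 CPM in M4, M5 and M6 and 43.1, 50.8 and 10.1 CPM in M1, M2 and M3, and Cd68 had 55 counts in hypercapnia and 51 in room air. The 12 epithelial markers summed to 429 to 556 CPM in hypercapnia and 440 to 733 CPM in room air. In pooled cells, fewer cells of a type and less RNA per cell cannot be told apart.

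Per kilobase of exon, Rgs2 was the most abundant of the 10 genes in every library. Rgs2 is a Gq-selective R4 protein known for limiting the response of vessels to vasoconstrictors. Its level was 63.2, 43.0 and 74.3 CPM per kilobase in M4, M5 and M6, against 102, 70.4 and 58.3 in M1, M2 and M3, and the lowest of these lay above the highest value of any other member. Rgs12 came next, with a lowest, median and highest level of 4.15, 6.91 and 10.5 CPM per kilobase over the 6 libraries. Rgs3 (2.95, 4.28 and 5.00), Rgs19 (3.28, 4.12 and 4.33) and Rgs10 (2.30, 2.94 and 4.27 CPM per kilobase) followed. The ranges of Rgs12 and Rgs3 overlapped, as did those of Rgs3 and Rgs19 and of Rgs19 and Rgs10, so these neighbours in the order were not separated.

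Rgs9 stood at a median of 1.29 CPM per kilobase (0.329 to 2.26), below every library's value for Rgs10. Rgs4 (0.514 to 1.46) and Rgs5 (0.0467 to 1.01 CPM per kilobase) overlapped with it and with each other. Rgs17 lay between 0.0507 and 0.233 CPM per kilobase and Rgs16 between 0 and 0.353, and both ranges overlapped that of Rgs5. The order of the 10 medians was the same with the longest single transcript in place of all exons, and without TMM factors.

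**Figure D1:**
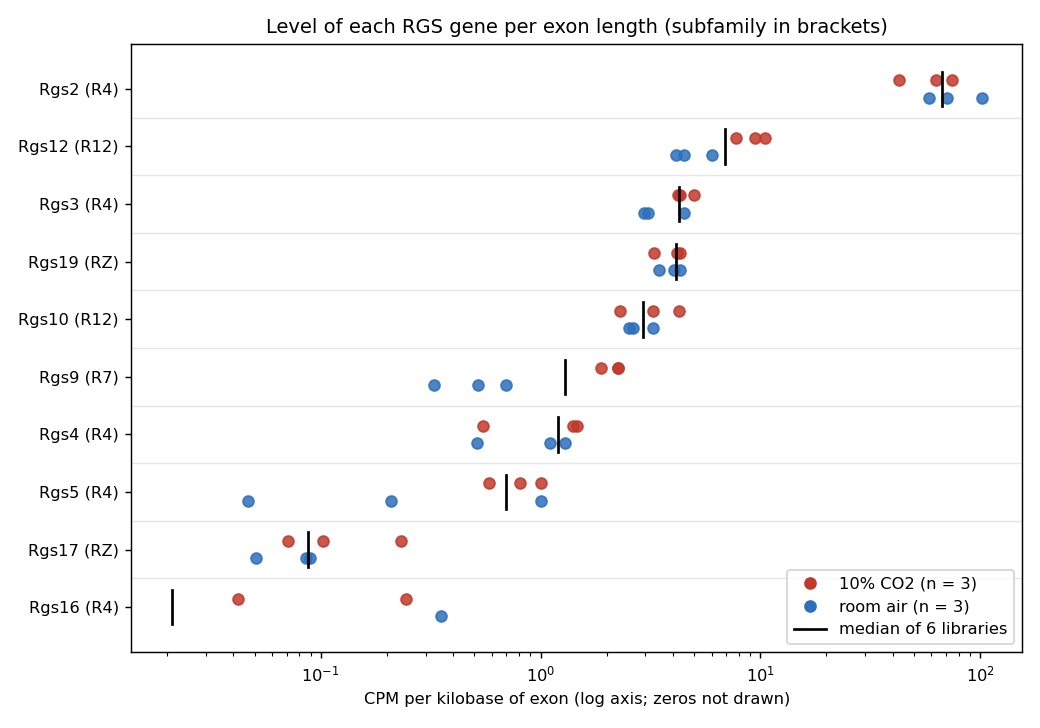
Level of the 10 RGS genes in CPM per kilobase of exon, on a log axis, with the 3 hypercapnia libraries (10% CO2) above the 3 room air libraries in each row and a black line at the median of all 6; libraries at 0, which occur only for Rgs16, are not drawn. Rgs2 stands apart from the rest with values of 43.0 to 102, and Rgs16 and Rgs17 have the lowest medians, with ranges that overlap that of Rgs5.

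Of the summed level of the 10 genes per kilobase, Rgs2 made up 70.6%, 62.5% and 75.8% in M4, M5 and M6, against 83.7%, 80.1% and 80.1% in M1, M2 and M3. The groups did not overlap in this share. It depends on every gene in the sum, and Rgs9 and Rgs12 were listed with their earlier results known. The level of Rgs2 itself overlapped between the groups. Rgs12 held 11.3% ± 3.70 of the sum in hypercapnia and 5.26% ± 0.389 in room air (SD, n = 3 each), and Rgs9 held 2.57% ± 0.667 in hypercapnia and 0.586% ± 0.323 in room air. The sum itself overlapped between the groups, at 68.9 to 98.0 CPM per kilobase in hypercapnia and 72.8 to 121 in room air.

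In the comparison of hypercapnia with room air, Rgs9 and Rgs12 were called higher and no member was called lower. Of the 10 members, 8 passed edgeR's filter on low counts. By edgeR's quasi-likelihood test, with p adjusted over 13005 genes by the Benjamini-Hochberg method and a threshold of 0.05, 2 of the 8 were called, both higher, where 1.22% of all tested genes were called 0.523% were called higher and 0.700% lower. In CPM the groups lay apart for the same 2 members, and over all tested genes 9.28% lay wholly higher in hypercapnia and 8.74% wholly lower. Since the comparison was known when the genes were listed, nothing is read from these counts. The median log2 fold change of the 8 members was 0.29, and that of all tested genes was 0.01. Over all genes the calls split into 68 higher and 91 lower, and without composition factors into 97 higher and 75 lower.

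Rgs9, the R7 member, showed the largest log2 fold change of the 8 tested members. Its protein ends the light response of photoreceptors and, in a second isoform, restrains dopamine and opioid receptor signalling in the striatum. Rgs9 (ENSMUSG00000020599, mm10 chromosome 11, 109225355 to 109298129, minus strand) had 127, 146 and 129 counts in M4, M5 and M6, against 28, 20 and 42 in M1, M2 and M3. On the CPM scale this was 14.5, 14.4 and 12.1 in the hypercapnia libraries and 3.3, 2.1 and 4.46 in the room air libraries. Every hypercapnia library was above every room air library, and the spread within each group was small beside the difference. The level was 4.14-fold higher (log2 fold change 2.05 ± 0.32, SE, edgeR adjusted p = 0.0156). None of its exonic bases are shared with another gene model.

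The call of Rgs9 was lost without M2, M5 or M6. Without M2 the edgeR adjusted p was 0.0649, without M5 it was 0.0934 and without M6 it was 0.0647, while the log2 fold change lay between 1.81 and 2.34 with any 1 library left out. Calls fell over all genes as well, from 159 with all 6 libraries to 24 without M2, 27 without M5 and 42 without M6. The endothelial marker level, a mean log2 CPM of 7.40, 7.08 and 6.70 in M4, M5 and M6 and of 6.72, 6.46 and 4.88 in M1, M2 and M3, was higher in the hypercapnia group apart from M6. With that level as a covariate the log2 fold change of Rgs9 was 2.37 ± 0.44 and its edgeR adjusted p 0.0191. With the level of pericyte and smooth muscle markers as the covariate the value was 1.71 ± 0.45 and the adjusted p 0.53. That marker level was higher in every hypercapnia library (4.87, 5.03 and 5.04, against 4.86, 4.60 and 4.83 in room air), and under it edgeR called 0 genes of 13005, with 770 at an unadjusted p under 0.05. Over all settings tried the adjusted p of Rgs9 ran from 4.96e-07 to 0.53.

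The partners of Rgs9 were looked up from a fixed list of 5 genes, of which 2 passed the filter and 0 were called by edgeR, DESeq2 or limma-voom, also with 0 at an unadjusted edgeR p under 0.05. Gnb5, the beta subunit that R7 proteins need for their stability, stood at 8.77, 10.6 and 10.2 CPM in M4, M5 and M6 and at 5.78, 9.46 and 6.26 CPM in M1, M2 and M3 (log2 fold change 0.46 ± 0.28). Rgs7bp, which anchors R7 complexes to the membrane, stood at 26.3, 17.5 and 17.1 CPM in hypercapnia and 11.4, 9.46 and 18.9 CPM in room air (0.61 ± 0.28, edgeR adjusted p = 0.434). Both overlapped between the groups. Rgs9bp, the anchor used in photoreceptors, had 0 counts in hypercapnia and 4 in room air. Per kilobase of exon, Rgs9 reached 2.14 ± 0.211 CPM in hypercapnia and 0.514 ± 0.184 in room air, beside Gnb5 at 3.17 ± 0.313 in hypercapnia and 2.30 ± 0.642 in room air and Rgs7bp at 2.87 ± 0.738 in hypercapnia and 1.87 ± 0.703 in room air (SD, n = 3). These levels rest on the length of all exons, and the partners were not computed with the longest transcript, under which the median of Rgs9 was 2.39 in place of 1.29. Of the other R7 genes, Rgs6 stood at 2.99 ± 0.711 CPM in hypercapnia and 2.1 ± 1.48 in room air, Rgs11 at 1.11 ± 0.662 in hypercapnia and 1.29 ± 1.03 in room air, and neither was called. Rgs7 had 0 counts in hypercapnia and 4 in room air.

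Rgs12, a large R12 protein that carries a PDZ domain, Ras-binding domains and a GoLoco motif beside its RGS domain, was the other member that rose. Rgs12 (ENSMUSG00000029101, chromosome 5, 34949445 to 35039644, plus strand) had 707, 906 and 705 counts in M4, M5 and M6, against 434, 363 and 332 in M1, M2 and M3. In CPM these were 80.6, 89.2 and 66.1 in hypercapnia and 51.2, 38.1 and 35.2 in room air. The groups did not overlap, and M6 and M1 were the closest pair. The level was 1.89-fold higher (log2 fold change 0.92 ± 0.17, SE, edgeR adjusted p = 0.0314). An antisense gene model, Gm43791, which is not in the count table, covers 5.5% of the exonic bases of Rgs12, and without the strand setting reads there cannot be assigned.

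The call of Rgs12 was lost in edgeR without M2 (adjusted p = 0.201), M3 (0.0584), M4 (0.0606), M5 (0.164) or M6 (0.0582), with log2 fold changes of 0.81 to 1.1 over all 6 omissions. Without these libraries edgeR called 24, 119, 148, 27 and 42 genes in all, against 159 with all 6 libraries. With the endothelial level as a covariate the log2 fold change of Rgs12 was 0.67 ± 0.18 and its adjusted p 0.0896, and with the pericyte and smooth muscle level 0.82 ± 0.26 and 0.657. Over all settings the adjusted p of Rgs12 ran from 2.63e-07 to 0.657. Rgs10, the other R12 gene and a small protein best known from microglia and other leukocytes, stood at 5.58, 3.94 and 7.31 CPM in M4, M5 and M6 and at 5.55, 4.52 and 4.35 in M1, M2 and M3. The groups overlapped, with a log2 fold change of 0.23 ± 0.36 and an edgeR adjusted p of 0.882. Rgs14, the third gene of that subfamily, had 4 counts in hypercapnia and 3 in room air.

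**Figure D2:**
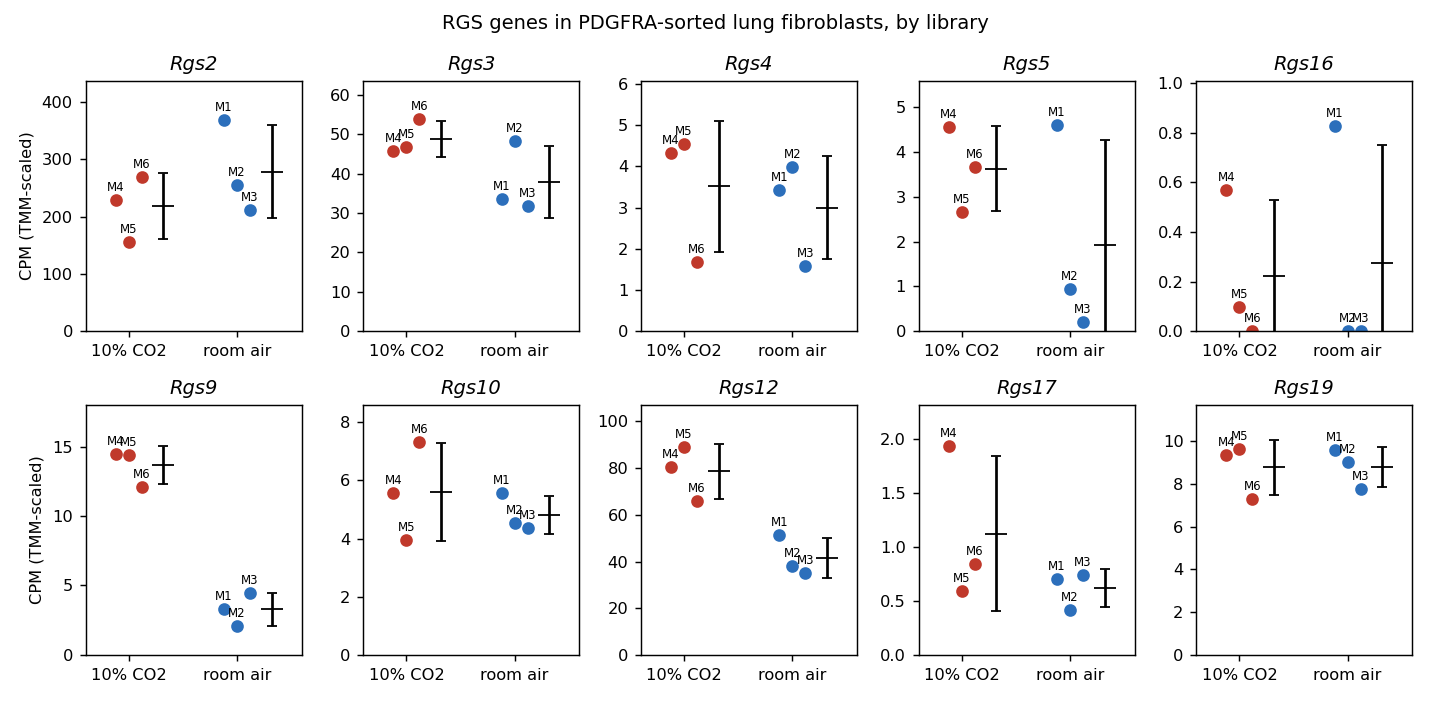
CPM of the 10 RGS genes in each library, with a separate linear axis per gene, hypercapnia (10% CO2) to the left of room air, and the mean ± SD of each group (n = 3) in black, drawn from 0 upward. Rgs9 (12.1 to 14.5 CPM in hypercapnia, 2.1 to 4.46 in room air) and Rgs12 (66.1 to 89.2 CPM in hypercapnia, 35.2 to 51.2 in room air) are the panels in which the groups do not overlap.

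**Figure D3:**
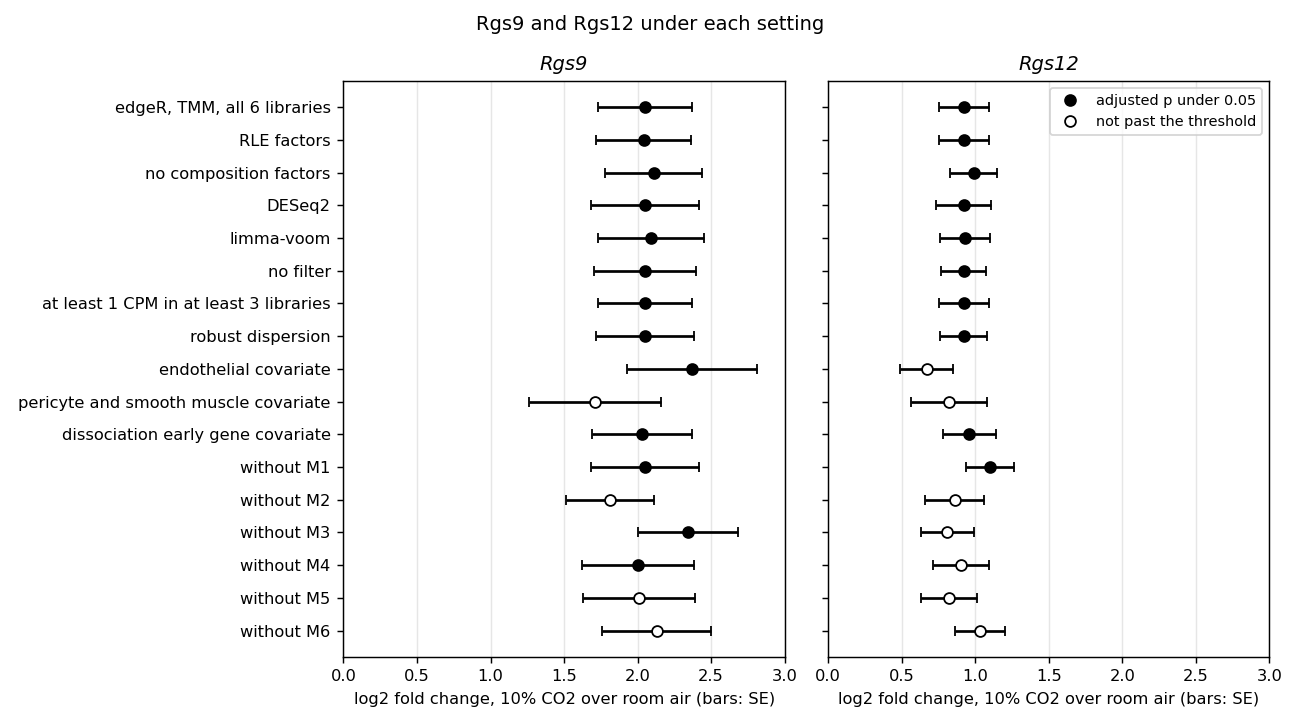
Log2 fold change of Rgs9 and Rgs12 (hypercapnia over room air, bars SE) under each normalization, tool, filter, covariate and omitted library, with filled circles where the adjusted p was under 0.05. Rgs9 lies between 1.71 and 2.37 and Rgs12 between 0.67 and 1.1, and the open circles show where a call was lost.

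The bases before the start sites of the 2 genes that rose are shown because both changed in the same direction. They are the 250 bases before each RefSeq start (GRCm38.p6, the build of mm10), 5′ to 3′ on the strand of the gene, with capitals for matches on either strand to TATAAA (the TATA box), CCAAT and TGACG (the core of the cAMP response element). Rgs9 has 1 such window, chr11:109298182-109298431 on the minus strand, and GENCODE M21 places the first base of the gene further downstream, at 109298129. Rgs12 has 2, chr5:34949198-34949447 and chr5:34998828-34999077 on the plus strand.
Rgs9: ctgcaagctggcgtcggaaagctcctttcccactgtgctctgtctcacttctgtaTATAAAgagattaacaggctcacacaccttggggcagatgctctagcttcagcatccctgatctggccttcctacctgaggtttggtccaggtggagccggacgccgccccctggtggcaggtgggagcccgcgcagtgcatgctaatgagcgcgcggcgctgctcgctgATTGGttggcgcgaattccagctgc
Rgs12, first start: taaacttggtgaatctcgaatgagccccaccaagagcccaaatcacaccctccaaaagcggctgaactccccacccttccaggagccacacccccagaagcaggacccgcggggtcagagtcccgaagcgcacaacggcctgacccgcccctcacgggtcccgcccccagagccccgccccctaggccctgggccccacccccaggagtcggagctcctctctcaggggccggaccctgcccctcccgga
Rgs12, second start: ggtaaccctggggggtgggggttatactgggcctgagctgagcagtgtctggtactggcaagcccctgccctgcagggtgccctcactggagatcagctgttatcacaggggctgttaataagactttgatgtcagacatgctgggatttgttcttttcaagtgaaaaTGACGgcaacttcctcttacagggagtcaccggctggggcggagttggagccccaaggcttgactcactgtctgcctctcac
The Rgs9 window held TATAAA beginning 195 bases before the start and the opposite-strand form of CCAAT 25 bases before it, while the second Rgs12 window held TGACG 82 bases before its start and the first held none of the motifs. The 2 genes thus shared none of them. Over 32851 windows of this length, 12.4% held TATAAA, 33.8% CCAAT and 17.8% TGACG on either strand. Among the 14 windows of the 10 members, 4 held TATAAA, 5 CCAAT and 3 TGACG, and the E-box CACGTG, found in 6.02% of all windows, was in 0. A match is a description of the letters only.

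Among the R4 genes none was called. Rgs2 (ENSMUSG00000026360, chromosome 1, 143999338 to 144004161) stood at 229, 156 and 269 CPM in M4, M5 and M6, against 369, 255 and 212 CPM in M1, M2 and M3. The groups overlapped, with M1 highest and M5 lowest of all libraries. The difference of -0.35 ± 0.23 on the log2 scale did not pass (edgeR adjusted p = 0.605, from 0.171 to 0.951 over the settings tried). Rgs2 is also induced quickly by stimuli, and the fixed list of 18 early genes that respond to tissue dissociation varied widely between libraries. Its summed level was 31400, 5280 and 10200 CPM in M4, M5 and M6 and 35400, 20500 and 13500 CPM in M1, M2 and M3. M5, lowest for the early genes, was lowest for Rgs2, and M1, highest in the sum, was highest for Rgs2, but M4, next to M1 in the sum, held less Rgs2 than M6 and M2. With the mean log2 level of the early genes as a covariate, added after seeing the data, the log2 fold change of Rgs2 was -0.17 ± 0.19. None of the 18 early genes was called by edgeR, DESeq2 or limma-voom, with 0 at an unadjusted edgeR p under 0.05. Among the 18, 4 had a positive and 14 a negative log2 fold change. Their median was -0.45, against 0.01 over all tested genes. The smallest p values in the list belonged to Fosl1 (log2 fold change 1.22 ± 0.64, with 57.2% of its exonic bases shared with another gene model), Egr3 (0.78 ± 0.41) and Klf6 (-0.39 ± 0.24).

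Rgs3, whose longer isoforms carry domains beyond the RGS domain, stood at 45.7, 46.8 and 54.0 CPM in M4, M5 and M6 and 33.5, 48.4 and 31.8 CPM in M1, M2 and M3. The hypercapnia libraries were tight and lay above M1 and M3, but M2 fell among them. The log2 fold change was 0.36 ± 0.18 (edgeR adjusted p = 0.454). With 1 library left out it ran from 0.25 without M3 (adjusted p = 0.623) to 0.58 without M2 (adjusted p = 0.261). Rgs4, a regulator of Gi and Gq signalling in brain and heart, stood at 4.33, 4.53 and 1.69 CPM in hypercapnia and 3.42, 3.99 and 1.59 CPM in room air (0.22 ± 0.54, adjusted p = 0.929). Each group had 2 libraries of 3.42 to 4.53 CPM and 1 library, M6 or M3, of 1.69 or 1.59 CPM. The sign of Rgs4 turned with the endothelial covariate (-0.58) and without M3 (-0.08) or M5 (-0.01).

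Rgs5, a defining gene of pericytes, was scarce and uneven. It had 40, 27 and 39 counts in M4, M5 and M6, against 39, 9 and 2 in M1, M2 and M3, which is 4.56, 2.66 and 3.66 CPM in hypercapnia and 4.60, 0.946 and 0.212 CPM in room air. M2 and M3 were low and M1 was as high as the highest hypercapnia library. The log2 fold change of 0.93 ± 0.81 did not pass (edgeR adjusted p = 0.74), and it ran from 0.39 without M3 to 2.61 without M1 (adjusted p = 0.184). With the endothelial level as a covariate it turned to -0.24 ± 0.73. Of the other pericyte and smooth muscle genes, Pdgfrb stood at 146 ± 26.1 CPM in hypercapnia and 158 ± 8.97 CPM in room air, Cspg4 at 10.3 ± 2.26 CPM in hypercapnia and 11.4 ± 1.10 CPM in room air, and Acta2 at 41.0 ± 7.19 CPM in hypercapnia and 43.9 ± 4.14 CPM in room air (SD, n = 3). The pericyte marker Higd1b had 3 counts in hypercapnia and 8 in room air. The list was divided, with 6 positive and 6 negative log2 fold changes among its 12 tested genes. In hypercapnia 5 genes lay wholly higher and 2 wholly lower, where 9.28% of all tested genes lay wholly higher and 8.74% wholly lower. Abcc9 stood at 206 ± 17.5 CPM in hypercapnia and 142 ± 13.8 CPM in room air (log2 fold change 0.54 ± 0.12, edgeR adjusted p = 0.0682). Kcnj8, which encodes the channel partner of Abcc9, stood at 64.6 ± 9.80 CPM in hypercapnia and 39.0 ± 7.66 CPM in room air (0.73 ± 0.17, edgeR adjusted p = 0.0841). Mcam (0.93 ± 0.39), Ndufa4l2 (0.91 ± 0.42) and Notch3 (0.46 ± 0.22) were the other genes wholly higher. Mcam stood at 115, 77.9 and 70.5 CPM in M4, M5 and M6 and 63.9, 57.7 and 16.3 CPM in M1, M2 and M3. Like the endothelial marker level, Mcam was highest in M4 and lowest in M3, and a link was not tested. Myh11 (-0.95 ± 0.32) and Tagln (-0.37 ± 0.18, with 67.9% of its exonic bases shared with another gene model) were those wholly lower. None of the 12 was called by edgeR, and 4 had an unadjusted edgeR p under 0.05, as had 1567 of all 13005 tested genes. DESeq2 called Abcc9 and Kcnj8, and limma-voom called 1. The part of pericytes or endothelial cells in the Rgs5 values was not tested. The pericyte and smooth muscle level was higher in every hypercapnia library, so as a covariate it cannot be told apart from the exposure. The endothelial level was also higher in hypercapnia apart from M6.

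**Figure D4:**
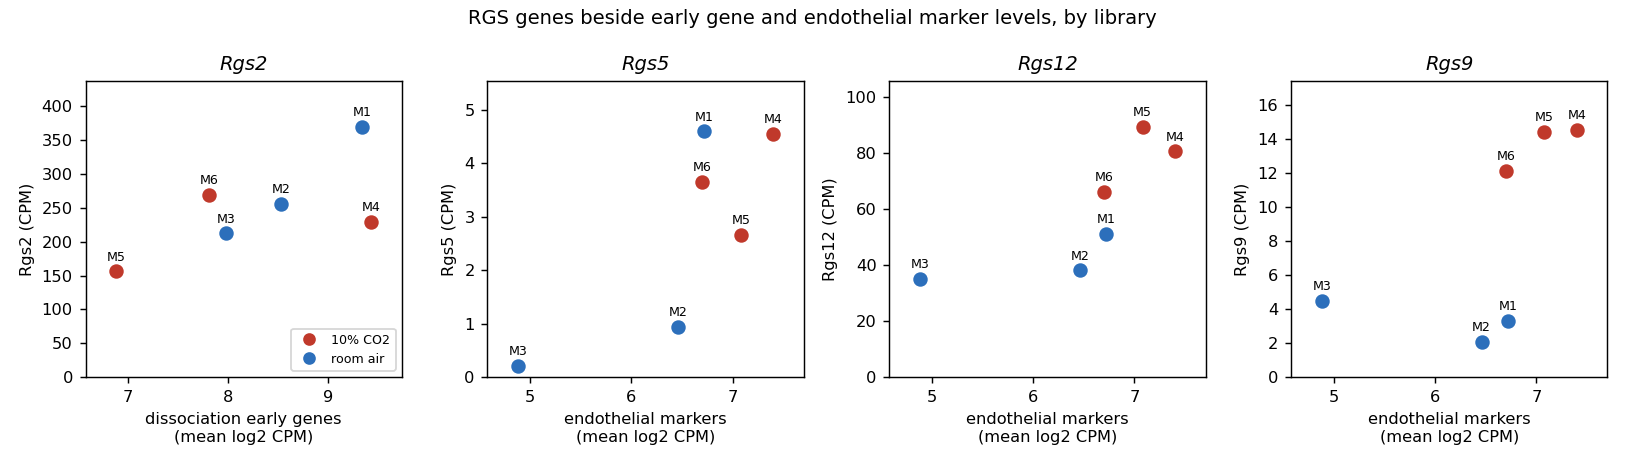
CPM of Rgs2 against the mean log2 CPM of 18 early genes, and of Rgs5, Rgs12 and Rgs9 against the mean log2 CPM of 21 endothelial markers, 1 point per library, red for hypercapnia and blue for room air. M5 is lowest on both axes for Rgs2, the endothelial level runs from 6.70 to 7.40 in hypercapnia and from 4.88 to 6.72 in room air, and M6 and M1 are the closest libraries of opposite groups on that axis.

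Rgs16, which is induced in activated lymphocytes and follows the clock in liver, was at the limit of detection. It had 5, 1 and 0 counts in M4, M5 and M6 and 7, 0 and 0 in M1, M2 and M3. The zeros allow up to 0.281 CPM in M6, 0.315 in M2 and 0.318 in M3, and no fold is given. An antisense model, Gm28513, shares 10.1% of its exonic bases and had 2 counts in all. Of the RZ genes, which encode proteins with a palmitoylated cysteine string, Rgs17 was nearly as scarce, with 17, 6 and 9 counts in hypercapnia and 6, 4 and 7 in room air. The 32 counts against 17 give a ratio of 1.74 per effective library size with an exact 95% interval of 0.94 to 3.35, which covers counting error only, and 17 of the 32 came from M4. Rgs19 (GAIP), a regulator of Gi signalling, was even across all libraries at 9.34, 9.65 and 7.31 CPM in M4, M5 and M6 and 9.56, 9.04 and 7.75 CPM in M1, M2 and M3. Its groups overlapped almost wholly, with a log2 fold change of -0.0026 ± 0.26 (edgeR adjusted p = 0.998).

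Of the 12 RGS genes outside the 10, Rgs6 and Rgs11 were the 2 that passed the filter. Rgs1, Rgs8, Rgs18 and Rgs21 had 0 counts in all 6 libraries. Rgs1 is best known from lymphocytes and Rgs18 from platelets. Rgsl1, the most abundant of the genes under the filter, had 19 counts in hypercapnia and 21 in room air.

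The wider pathway was read from lists fixed beside the 10 genes and with earlier results known. Of 12 tested G alpha subunits 0 were called by edgeR, DESeq2 or limma-voom, and 2 had an unadjusted edgeR p under 0.05. Over all 13005 tested genes 1567 had such a p. Gnao1, the Go subunit and a substrate of R7 and R12 proteins, stood at 19.7, 21.6 and 11.8 CPM in M4, M5 and M6 and 11.7, 9.04 and 7.11 CPM in M1, M2 and M3 (log2 fold change 0.93 ± 0.29, edgeR adjusted p = 0.18). M6 and M1 nearly met. Gnai1 stood at 88.5 ± 12 CPM in hypercapnia and 113 ± 8.56 CPM in room air (-0.36 ± 0.13, adjusted p = 0.257), and Gna14, a Gq-like subunit, at 15.7 ± 5.51 CPM in hypercapnia and 9.12 ± 4.46 CPM in room air (0.79 ± 0.39, adjusted p = 0.475). The median log2 fold change of the G alpha subunits was 0.06. Of 12 tested beta and gamma subunits 0 were called by any of the 3 tools, with 1 at an unadjusted edgeR p under 0.05. Those with the smallest p were Gng11 (-0.43 ± 0.16), Gng2 (-0.32 ± 0.19, with 20.4% of its exonic bases shared with another gene model) and Gng7 (-0.30 ± 0.21).

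Of 29 tested receptors listed as Gi or Gq coupled, with the atypical chemokine receptor Ackr3 among them, edgeR called 1 lower and 1 higher. Limma-voom called 3 and DESeq2 called 4 (Ednra and S1pr3 as well). Over all genes edgeR called 159 of 13005, limma-voom 196 of 13005 and DESeq2 426 of 13616. Of the 29, 9 had an unadjusted edgeR p under 0.05, against 1567 of all 13005 tested genes. Among them 14 of the 29 had a positive and 15 a negative log2 fold change. Adra1a, the alpha-1A adrenergic receptor that couples to Gq, fell to 136, 124 and 110 CPM in M4, M5 and M6, against 206, 247 and 218 CPM in M1, M2 and M3. Every hypercapnia library lay below every room air library, a log2 fold change of -0.86 ± 0.12 (edgeR adjusted p = 0.0102). Cxcr4, the Gi-coupled receptor of CXCL12, was at 13.8, 20.3 and 19.9 CPM in hypercapnia and 7.20, 4.94 and 4.78 CPM in room air (1.68 ± 0.27, adjusted p = 0.0178). The edgeR call of Adra1a was lost without M2 (adjusted p = 0.078), M5 (0.0745) or M6 (0.0554), and that of Cxcr4 without M2 (0.12), M5 (0.108) or M6 (0.0902). Without M2, M5 or M6 edgeR called 24, 27 and 42 genes in all. The calls of Adra1a and Cxcr4 held with the endothelial covariate (adjusted p = 0.0085 for Adra1a and 0.0455 for Cxcr4) and were lost with the pericyte and smooth muscle covariate (0.53 for Adra1a and 0.646 for Cxcr4). Over all settings the adjusted p ran from 6.84e-08 to 0.53 for Adra1a and from 1.23e-06 to 0.646 for Cxcr4.

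Of 8 tested receptor kinases and arrestins, which switch receptors off by phosphorylation and capping, Grk5 fell and 7 did not pass. Over all tested genes edgeR called 1.22%. In this list 6 genes had a positive and 2 a negative log2 fold change, with a median of 0.33 against 0.01 over all tested genes. Grk5 held 119, 114 and 116 CPM in M4, M5 and M6, against 185, 180 and 167 CPM in M1, M2 and M3, with no overlap and little spread within either group. On the log2 scale it changed by -0.61 ± 0.10 (edgeR adjusted p = 0.0222). The call was lost without M1 (0.0692), M2 (0.13), M5 (0.138) or M6 (0.0872), and it held with the endothelial covariate (-0.68 ± 0.12, adjusted p = 0.0176) but not with the pericyte and smooth muscle covariate (0.594), the highest of a range that began at 5.66e-05. Without M1, M2, M5 or M6 edgeR called 110, 24, 27 and 42 genes in all, against 159 with all 6 libraries.

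Of 12 tested effectors 0 were called by edgeR or limma-voom, 6 had an unadjusted edgeR p under 0.05 (1567 of all 13005 tested genes had), and DESeq2 called Plcb2. The median log2 fold change of the list was 0.50, against 0.01 over all tested genes. Plcb4, a phospholipase C driven by Gq, stood at 49.6, 67.3 and 43.7 CPM in M4, M5 and M6 and 32.2, 37.0 and 34.7 CPM in M1, M2 and M3 (0.63 ± 0.17, edgeR adjusted p = 0.134). Itpr2, a calcium release channel, stood at 57.0 ± 10.9 CPM in hypercapnia and 37.4 ± 5.44 CPM in room air (0.61 ± 0.17), and Plcb2 at 4.68 ± 1.54 CPM in hypercapnia and 0.972 ± 0.723 CPM in room air (2.26 ± 0.66, adjusted p = 0.156). All 3, picked by the smallest p, had groups that did not overlap, as had 18.0% of all tested genes. The 21 endothelial markers all had positive log2 fold changes, with a median of 0.88 and 13 at an unadjusted edgeR p under 0.05, and their part in the effector values was not tested.

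Of 8 tested modulators of G alpha, 0 were called by edgeR or limma-voom, 2 had an unadjusted edgeR p under 0.05, and DESeq2 called Rasd2. Over all tested genes 1567 of 13005 had such a p, and DESeq2 called 426 of 13616. Rasd2, a Ras-like GTPase enriched in striatum, as one isoform of Rgs9 is, stood at 4.33, 6.00 and 4.03 CPM in M4, M5 and M6 and 0.826, 0.736 and 1.38 CPM in M1, M2 and M3 (log2 fold change 2.27 ± 0.51, edgeR adjusted p = 0.0683). The groups did not overlap, as was so for 18.0% of all tested genes. Gpsm2, a GoLoco protein of spindle orientation, stood at 88.7 ± 9.92 CPM in hypercapnia and 118 ± 7.64 CPM in room air (-0.42 ± 0.12, adjusted p = 0.15), and Ric8b, a chaperone of Gs, at 25.3 ± 3.45 CPM in hypercapnia and 30.9 ± 5.71 CPM in room air. Of 9 other proteins with an RGS-like domain, 0 were called by any of the 3 tools, with 0 at an unadjusted edgeR p under 0.05. Their smallest p values belonged to Snx25 (0.27 ± 0.19), Arhgef1 (0.13 ± 0.10) and Akap10 (-0.27 ± 0.22), and their median log2 fold change was 0.01.

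**Figure D5:**
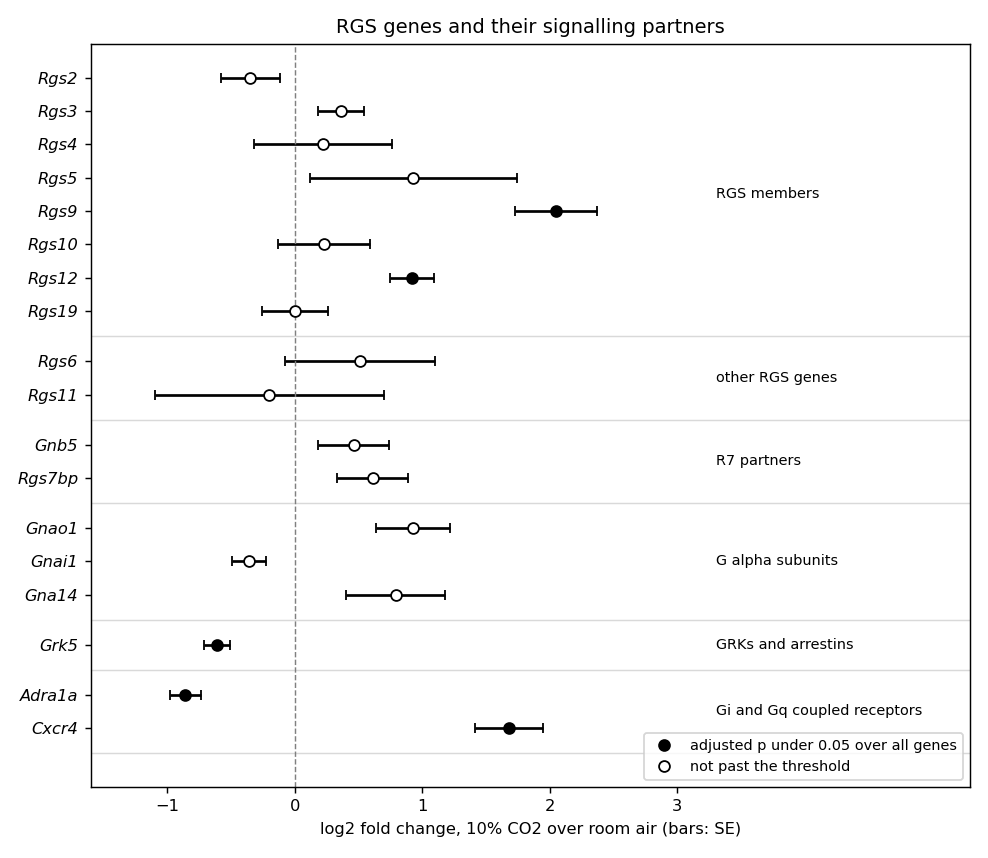
Log2 fold change (hypercapnia over room air, bars SE) of the 8 tested RGS members and of named genes of the other lists, with filled circles where the edgeR adjusted p over all genes was under 0.05. Rgs9 (2.05), Rgs12 (0.92) and Cxcr4 (1.68) lie to the right of 0 and Grk5 (-0.61) and Adra1a (-0.86) to the left among the filled circles.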

How the data were processed

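RNA-seq read counts per gene were used from 6 libraries, 3 per group. The authors deposited raw counts, whole numbers in a single table. TopHat2 2.1.0, HTSeq, bcl2fastq 2.17.1.14, FastQC and the build mm10 are listed, without role or order, in the submitters' processing notes. Annotation release, strand setting and read filters were not given in the sources used here. Columns name the group but not a sample title, so each was mapped to its group. Symbols, positions and exon lengths came from GENCODE M21 and promoter windows from RefSeq (GRCm38.p6), which held all 10 members in 14 windows.

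Computed here were TMM factors (0.943 to 1.05), the default edgeR filter by group (minimum count 10, 13005 genes kept) and the quasi-likelihood test of edgeR (version 4.0.16, limma 3.58.1, DESeq2 1.42.0, R 4.3.3), two-sided, with 4 residual degrees of freedom. The SE is the log2 fold change over the square root of F. Since each library pools separate mice, p-values measure the spread between pools. No library repeated another. The closest pairs, M1 with M4 and M5 with M6, each differed with a chi-square of 12.6 per degree of freedom. M4, of hypercapnia, was nearer to M1, of room air, than to M5 (31.2) or M6 (26.7). The fit was tested on simulated data. Marker levels, also used as covariates, are mean log2 CPM with a prior count of 2. Intervals and floors cover counting error only. Counts without a symbol made up 0.0761% to 0.0958% of a library. Alternatives were other normalizations, filters, tools and covariates and each library left out, the early gene covariate being added after the data were seen.

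The members and lists were chosen with earlier results of these data known. Named are the members, other RGS genes past the filter, each list's called genes or otherwise its 3 smallest p values, and the sort checks Pdgfra, Ptprc, Pdgfrb, Cspg4 and Acta2. Col1a1 (4940 ± 479 CPM in hypercapnia and 5080 ± 285 CPM in room air), Pecam1 (308 ± 81.7 CPM in hypercapnia and 169 ± 101 CPM in room air) and Epcam (0.487 ± 0.764 CPM in hypercapnia and 1.17 ± 1.07 CPM in room air, SD, n = 3) are further checks. Rgs7, Rgs9bp, Rgs14, Rgsl1, Higd1b, Abcc9, Kcnj8, Mcam, Ndufa4l2, Notch3, Myh11, Tagln, Lyz2, Cd68, Ednra, S1pr3, Ackr3 and the RGS and leukocyte genes at 0 were named after their values were seen.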

Additional observations from a re-analysis of the deposited data

How the results depend on the processing

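The edgeR count of 159 changed genes was 154 with RLE factors, 172 without composition factors, 196 by limma-voom, 159 with at least 1 CPM in at least 3 libraries and 178 with the endothelial covariate. It was 426 by DESeq2, 756 without a filter, 255 with robust dispersion, 257 with the early gene covariate (added after seeing the data) and 0 with the pericyte and smooth muscle covariate, where 770 had an unadjusted p under 0.05. With 1 library left out it ran from 24 to 148 (24 without M2, 27 without M5 and 42 without M6). The 2 called members, Rgs9 and Rgs12, were both called under the RLE, no-composition, DESeq2, limma-voom, filter, robust and early gene settings and without M1. The count of called members was 1 with the endothelial covariate, 0 with the pericyte and smooth muscle covariate and 0 to 2 with 1 library left out. The 3 called genes of the other lists (Grk5, Adra1a and Cxcr4) became 0 to 4 genes with 1 library left out and were 3 without composition factors. The cause of these differences was not tested.

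Signs turned for members that were not called. Rgs19 (-0.0026) was 0.0627 without composition factors, 0.0001 without a filter, 0.0824 with the pericyte and smooth muscle covariate, 0.0273 with the early gene covariate and -0.0873 to 0.1135 with 1 library left out. Rgs4 was -0.58 and Rgs5 was -0.24 with the endothelial covariate, Rgs4 ran from -0.08 to 0.56 and Rgs10 from -0.01 to 0.43 with 1 library left out. Rgs9, Rgs12, Rgs2 and Rgs3 kept their sign under all 16 alternatives. With the longest transcript, the levels per kilobase of Rgs3, Rgs9, Rgs10, Rgs12 and Rgs19 were higher by more than their SD over libraries (Rgs3 to 9.84 and Rgs9 to 2.39), and all 10 members kept their place. At this depth Rgs16 and Rgs17 lay too near the limit of detection for a comparison. No paired analysis was possible because the labels number no replicates and the columns cannot be tied to single samples, so no numbers pair the groups.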
